A study of Mus musculus with 4 samples.

Results

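The 9 genes Ptch1, Smo, Gli1, Gli2, Gli3, Hhip, Gas1, Cdon and Boc encode the receptor, the transducer, the transcription factors and the cell-surface regulators through which a cell receives hedgehog signals. They were taken as the rows carrying these symbols in the deposited matrices, and all 9 were present among the 27999 genes of each of the 4 libraries. The libraries hold single cells sorted from the back skin dermis of C57BL/6J mice after the epidermis had been removed with dispase. All mice carried α-SMACreERT2, a tamoxifen-dependent Cre recombinase driven by the α-smooth muscle actin promoter, with a Rosa reporter, and all were given 1 mg of 4-hydroxy-tamoxifen into the peritoneum on postnatal days 3 and 4. The controls thus carried the same transgene and drug as the older mice.

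Each library came from 2 mice pooled, and 10000 cells were sorted for it from populations that were reporter-positive or Cd26+ and also Itga9+ or Cd200+. A 2-month and an 18-month library, labelled α-SMACreERT2:RosaYFP, were made with version 2 of the 10x Genomics 3' chemistry and are called 2mo v2 and 18mo v2 here. A second 2-month library and a 12-month library, labelled α-SMACreERT2:RosaTDTomato, were made with version 3 and are called 2mo v3 and 12mo v3. There was thus 1 library for each age and chemistry, and cells could not be assigned to a mouse. The series text counts the 12-month mice as young, which was tried as an alternative. The question addressed is whether the hedgehog-receiving genes differed with age in the mesenchyme of the hair follicle.

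Hedgehog ligands such as Shh bind Ptch1, which in their absence holds the membrane protein Smo inactive. Smo, once released, acts at the primary cilium on the Gli transcription factors, of which Gli1 and Gli2 act mainly as activators and Gli3 is also processed to a repressor. Gas1, Cdon and Boc are co-receptors that bind ligand together with Ptch1, and Hhip binds ligand without passing the signal on. In hair follicles Shh is made by the epithelium and received by the dermal papilla, and Ptch1, Gli1 and Hhip are themselves transcribed in response to hedgehog signalling in many tissues.

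The promoters of Ptch1 and Hhip are shown because both genes were concentrated in papilla cells and were the only members that passed the age test in any cell class tested. The windows are the 250 bases upstream of the RefSeq start in GRCm38.p6, written 5′ to 3′ on the strand of the gene. The Ptch1 window is chr13:63565736-63565985 on the minus strand, inside the annotated gene and outside its annotated exons. The Hhip window is chr8:80058009-80058258 on the minus strand, just before the annotated gene. Capitals mark matches to the GC box GGGCGG or its complement CCGCCC.
Ptch1: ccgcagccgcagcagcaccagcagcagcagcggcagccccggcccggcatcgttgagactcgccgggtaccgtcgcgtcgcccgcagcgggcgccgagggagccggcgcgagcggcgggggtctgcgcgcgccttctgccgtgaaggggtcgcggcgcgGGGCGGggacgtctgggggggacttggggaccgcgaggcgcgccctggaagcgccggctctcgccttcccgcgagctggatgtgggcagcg
Hhip: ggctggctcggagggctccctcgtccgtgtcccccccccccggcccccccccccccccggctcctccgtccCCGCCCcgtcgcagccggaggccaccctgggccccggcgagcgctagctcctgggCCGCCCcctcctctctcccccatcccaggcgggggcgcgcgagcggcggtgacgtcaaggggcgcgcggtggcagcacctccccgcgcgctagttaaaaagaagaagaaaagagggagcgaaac
The GC content was 78.4% in the Ptch1 window and 76% in the Hhip window. A promoter entry was found for 7 of the 9 members (Ptch1, Smo, Gli2, Gli3, Hhip, Gas1 and Cdon). The GC box was matched 1 time in Ptch1, 2 times in Hhip, 2 times in Gli3, and 1 time in each of Gli2 and Gas1. It was matched 0 times in Smo and Cdon, and 32.7% of all 32851 promoter windows of the same length held it. The GLI motif GACCACCCA, searched on both strands as TGGGTGGTC, was in 0 of the 7 windows and in 0.225% of all promoters, and no match says only that these letters are not in the window.

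After filters on genes, UMIs and mitochondrial share, and removal of likely doublets, 13460 of 17130 barcodes were kept. A UMI is a molecular tag that counts 1 captured transcript. Kept cells had a median of 6260 and 6588 UMIs in 2mo v2 and 18mo v2, against 11934 and 11787 in 2mo v3 and 12mo v3. Levels are given in CPM, the UMIs of a gene in the summed cells scaled to a common total. Xist had 0 and 0.104 CPM in the libraries of version 2 but 831 and 849 CPM in those of version 3, so chemistry, sex and reporter label cannot be told apart. The eYFP transcript was counted at 1165 to 2934 CPM in all 4 libraries, including those labelled TdTomato. The barcodes in the version 2 files (1906 and 2727) differ from the recovered cells in the labels (2604 and 3776). The version 3 libraries shared 84 barcodes with each other, the version 2 libraries 7, and a pair of different chemistry at most 1.

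Cells were grouped into 20 clusters without use of the 9 members or of the other hedgehog genes, and clusters were named from marker lists. Dermal papilla-like cells, the signalling core at the base of the follicle, numbered 518, 467, 1132 and 399 in 2mo v2, 18mo v2, 2mo v3 and 12mo v3, and all values in fours are in that order. Dermal sheath-like cells, which wrap the follicle and can contract, numbered 278, 402, 1208 and 1768, and dermal fibroblast-like cells 175, 683, 369 and 701. Macrophage and dendritic-like cells numbered 105, 363, 677 and 752, and keratinocyte-like cells 259, 147, 304 and 219. The sort gates can set these numbers, so they are given as cells in a library and not as a tissue composition. Each class held its own markers: the 16 papilla markers summed to 9821 to 14236 CPM in papilla-like cells, with 0 of 16 at 0 UMIs in any library.

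The clusters behind a class were not the same in all libraries. Cluster 0 held 99.2% and 86.7% of papilla-like cells in the version 2 libraries, and cluster 18 held 98.6% and 97.7% in the version 3 libraries. Among sheath-like cells cluster 5 held 95.7% and 65.2% in version 2, cluster 19 held 66.3% in 2mo v3 and cluster 16 held 82.2% in 12mo v3. Among macrophage and dendritic-like cells cluster 1 held 84.8% and 82.1% in version 2, and cluster 12 held 84.0% and 59.0% in version 3. Levels between chemistries were therefore not tested, and levels between genes were not ordered, since UMIs are not scaled by length. Annotated genes on the other strand overlap 6 members (Cdon, Gas1, Gli1, Gli2, Gli3 and Hhip). How strand was used in counting is not given in the sources used here, so whether reads of such pairs were kept apart was not tested. Genes on the same strand overlap Ptch1 (A930032L01Rik), Smo (Gm13717), Gli3 (Gm48343), Cdon (Gm25630) and Boc (Mir3081). Strand cannot separate the reads of these pairs.

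Ptch1, the receptor, had its highest level in papilla-like cells in every library. Its level there was 415 CPM in 2mo v2, 365 in 18mo v2, 959 in 2mo v3 and 755 in 12mo v3. Sheath-like cells held 155, 108, 136 and 132 CPM of Ptch1, and fibroblast-like cells 108, 53.9, 137 and 73.5 CPM. Every papilla value thus lay above every sheath and fibroblast value, while sheath and fibroblast values overlapped. The ratio of Ptch1 CPM in papilla-like to sheath-like cells was 2.67 (95% counting interval 2.35 to 3.04), 3.37 (2.99 to 3.81), 7.04 (6.74 to 7.37) and 5.71 (5.43 to 6.00). These intervals cover counting error only, and the classes are clusters of the same cells, so the ratios are descriptions with no test. Papilla-like cells held 55.0%, 49.3%, 61.9% and 39.2% of all Ptch1 UMIs, and sheath-like cells held 44.9% in 12mo v3 against 13.1% to 17.4% in the other libraries. Sheath-like cells made up 16.6%, 16.5%, 22.4% and 44.6% of the cells of these libraries. Cluster 15, whose best-matching list was dermal sheath, stayed unnamed and is not in the sheath-like class. It held 19.4% of the cells of 2mo v3.

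Ptch1 was also detected in most papilla-like cells. At least 1 Ptch1 UMI was found in 65.3%, 65.5%, 91.3% and 87.7% of them. After thinning each cell to 3000 UMIs, with shallower cells left out, the shares were 55.8%, 49.8%, 82.3% and 75.1%. Thinning thus lowered the shares and left the version 3 libraries the higher ones. In keratinocyte-like cells, the comparison for free RNA although follicle epithelium can itself express Ptch1, thinned shares were 2.70%, 6.80%, 6.29% and 6.07%, all below the papilla shares. Macrophage and dendritic-like cells, which are not mesenchyme either, held Ptch1 at 79.3%, 25.1%, 7.73% and 4.50% of its papilla CPM. The keratinocyte shares thus do not bound free RNA in every class, and whether the macrophage and dendritic-like level was free RNA was not tested. Median depths before thinning were 5035 to 8131 UMIs in papilla-like and 12991 to 25571 UMIs in keratinocyte-like cells.

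Smo, the membrane transducer held in check by Ptch1, was spread more evenly. Papilla-like cells held 69.0, 53.8, 124 and 101 CPM of Smo. Sheath-like cells held 50.4, 47.3, 87.0 and 72.9 CPM and fibroblast-like cells 46.5, 34.9, 64.4 and 56.1 CPM, so the order papilla, sheath, fibroblast held within each library. The ratio of Smo CPM in papilla-like to sheath-like cells was 1.37 (1.07 to 1.76), 1.14 (0.906 to 1.43), 1.42 (1.32 to 1.53) and 1.38 (1.23 to 1.54). The fibroblast to sheath ratio in 2mo v2 was 0.921 (0.657 to 1.28). That part of the order was thus within counting error, as was papilla over sheath in 18mo v2. Keratinocyte-like cells held 5.84 to 27.8 CPM and macrophage and dendritic-like cells 10.3 to 30.5 CPM of Smo, below the 3 mesenchymal classes in each library.

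**Figure D1:**
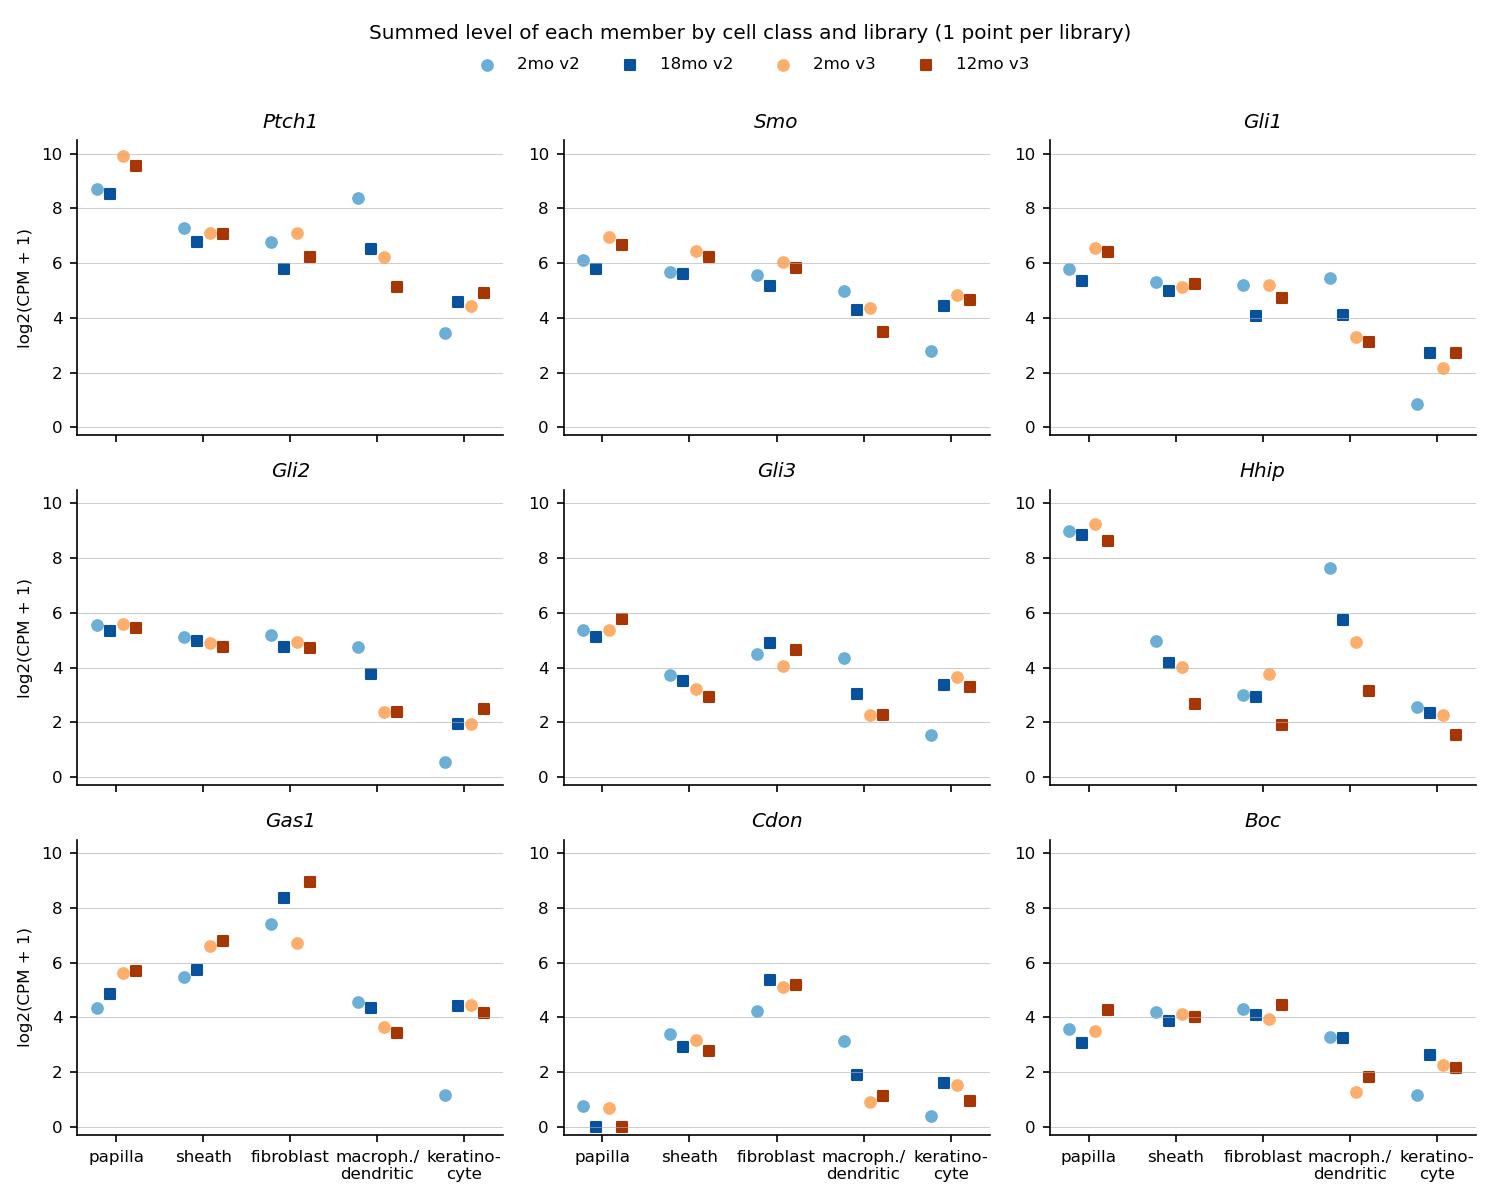
Levels of the 9 members by cell class and library, as log2(CPM + 1) of summed UMIs; each point is 1 library and no error is drawn because there is 1 library for each age and chemistry. Hhip and Ptch1 points of papilla-like cells lie above those of sheath-like and fibroblast-like cells, while Gas1 and Cdon points of fibroblast-like cells lie above those of papilla-like cells.

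Hhip, the decoy that binds ligand at the membrane, was concentrated in the papilla. Papilla-like cells held 509, 462, 601 and 398 CPM of Hhip, whereas sheath-like cells held 30.8, 17, 15.1 and 5.37 CPM. The papilla to sheath ratio was 16.5 (95% counting interval 12.8 to 21.7), 27.1 (20.8 to 35.9), 39.7 (35.1 to 45.1) and 74.1 (62.0 to 89.1). Papilla-like cells, between 10.1% and 30.9% of the cells of a library, held 80.6%, 82.9%, 90.9% and 86.7% of all Hhip UMIs. Hhip was detected in 86.5%, 83.3%, 91.8% and 86.0% of papilla-like cells, and in 71.8%, 69.5%, 77.9% and 66.1% at 3000 UMIs. In keratinocyte-like cells the thinned shares were at most 1.40%, and thinned shares of sheath-like cells were 7.19%, 3.61%, 3.92% and 1.65%. Sheath-like cells of 12mo v3 thus lay near that keratinocyte background, whereas papilla-like cells did not in any library. Macrophage and dendritic-like cells held Hhip at 38.7%, 11.4%, 4.99% and 1.94% of its papilla CPM, and 12.4% of all Hhip UMIs in 2mo v2.

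Gli1, the activator that is also a transcriptional readout of the pathway in many tissues, was highest in papilla-like cells among the 5 largest named classes within each library. Its level in papilla-like cells was 53.5, 39.5, 92.3 and 84.9 CPM. Sheath-like cells held 38.3, 30.8, 34.2 and 36.4 CPM of Gli1, and fibroblast-like cells 35.6, 15.9, 35.4 and 25.4 CPM. The ratio of Gli1 CPM in papilla-like to sheath-like cells was 1.40 (1.05 to 1.86), 1.28 (0.973 to 1.69), 2.70 (2.44 to 2.99) and 2.33 (2.05 to 2.65). In 18mo v2 the 2 classes were thus within counting error of each other. So were macrophage and dendritic-like and papilla-like cells in 2mo v2, with a ratio of 0.797 (0.566 to 1.11). Gli1 was detected in 14.7%, 9.65%, 23.4% and 22.8% of papilla-like cells at 3000 UMIs, against at most 3.40% of keratinocyte-like cells.

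Gli2, the main activator upstream of Gli1, was present in all 3 mesenchymal classes. Papilla-like cells held 46.6, 39.8, 47.3 and 42.6 CPM of Gli2. Sheath-like cells held 33.8, 30.6, 28.8 and 25.9 CPM, and fibroblast-like cells 35.6, 25.8, 29.3 and 25.0 CPM. The sheath and fibroblast values of Gli2 overlapped, and all of them lay below every papilla value. Within a library the papilla to fibroblast ratio in 2mo v2 was 1.31 (0.930 to 1.87). The papilla to sheath ratio in 18mo v2 was 1.30 (0.991 to 1.72), so both were within counting error of 1.

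Gli3, the factor that is also processed to a repressor, was concentrated in the papilla and, at a lower level, in fibroblasts. Papilla-like cells held 40.4, 33.9, 41.0 and 54.5 CPM of Gli3. Fibroblast-like cells held 21.7, 28.6, 15.8 and 23.8 CPM, and sheath-like cells 12.1, 10.3, 8.28 and 6.55 CPM. The 3 classes did not overlap for Gli3, in the order papilla, fibroblast, sheath. The papilla to sheath ratio of Gli3 was 3.34, 3.30, 4.95 and 8.32. Its papilla to fibroblast ratio in 18mo v2 was 1.18 (0.907 to 1.54), within counting error of 1.

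Gas1, a co-receptor anchored at the cell surface, was highest in fibroblast-like and lowest in papilla-like cells among the 3 mesenchymal classes. Fibroblast-like cells held 168, 328, 103 and 493 CPM of Gas1. Sheath-like cells held 43.4, 52.6, 97.4 and 110 CPM, and papilla-like cells 19.3, 28, 48.5 and 51.0 CPM. The papilla value was thus the lowest of the 3 within each library, with a papilla to sheath ratio of 0.446, 0.532, 0.498 and 0.462. The fibroblast to sheath ratio of Gas1 was 3.87, 6.23 and 4.46 in 2mo v2, 18mo v2 and 12mo v3. In 2mo v3 it was 1.06 (0.956 to 1.18), within counting error of 1. Arrector pili-like cells, the smooth muscle of the follicle, held 286, 329, 556 and 174 CPM of Gas1, from 65, 17, 459 and 2 cells. They held 43.6% of all Gas1 UMIs in 2mo v3 and 0.0918% in 12mo v3, so different classes supplied the Gas1 UMIs of different libraries.

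Cdon, a co-receptor of the immunoglobulin superfamily, was almost missing from papilla-like cells. Their summed counts held 2, 0, 7 and 0 Cdon UMIs, and a count of 0 allows up to 1.05 CPM in 18mo v2 and 0.793 CPM in 12mo v3. Fibroblast-like cells held 17.8, 40.7, 33.9 and 35.3 CPM of Cdon, and sheath-like cells 9.58, 6.46, 7.99 and 5.86 CPM. In 2mo v3 the fibroblast to papilla ratio was 56.5 (95% counting interval 26.8 to 143). Against a floor of 3 UMIs in the papilla-like cells of the library, Cdon was at least 38.8-fold higher in fibroblast-like cells of 18mo v2 and at least 44.6-fold higher in those of 12mo v3.

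Boc, the co-receptor closest to Cdon in structure, was low in all mesenchymal classes. Papilla-like cells held 11, 7.34, 10.4 and 18.2 CPM of Boc, sheath-like cells 17.1, 13.5, 16.4 and 15.1 CPM, and fibroblast-like cells 18.6, 16, 14.3 and 20.9 CPM. The values of the 3 classes overlapped, so no order among them was found. Arrector pili-like cells held 36.7, 73.1, 41.9 and 49.7 CPM of Boc, on 19, 8, 226 and 2 UMIs.

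The members were also counted together in single cells. At 3000 UMIs, 90.5%, 89.9%, 97.3% and 95.9% of papilla-like cells held a UMI of at least 1 member, with a mean of 1.90, 1.75, 2.54 and 2.36 members per cell. In sheath-like cells 68.0%, 59.8%, 68.4% and 66.9% held any member, and in keratinocyte-like cells 7.34% to 28.6%. Sheath-like cells that held a Gli1 UMI held Ptch1 in 38.9%, 44.4%, 47.6% and 40.8% of cases, against 31.4%, 23.6%, 28.4% and 27.6% of those without Gli1. In papilla-like cells the same shares were 72.4%, 65.9%, 89.6% and 81.8% with Gli1 and 52.9%, 48.1%, 80.1% and 73.2% without. Ptch1 was thus detected more often beside Gli1 in all 4 libraries and both classes, from 36 to 250 cells with Gli1. For Hhip the shares in papilla-like cells were 72.4%, 77.3%, 79.6% and 65.9% with Gli1 and 71.7%, 68.7%, 77.4% and 66.1% without, so a difference in 1 direction was not seen in all libraries. These shares are descriptions over cells, which share their library and are not replicates.

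The sources of ligand were few. Of the keratinocyte-like cells of cluster 14, 4, 5, 4 and 11 cells held Shh, with 8, 24, 16 and 136 UMIs. Dhh, the ligand known from endothelium and Schwann cells, was counted with 0, 3, 25 and 4 UMIs in endothelium-like cells. The age fit described next gave Shh a log2 fold of 3.10 ± 0.48 in keratinocyte-like cells (edgeR adjusted p = 0.708), with both older libraries above both young ones, on UMIs from 4 to 11 cells of a library. Shh passed the threshold there with a mitochondrial limit of 5% or without the filter on low counts.

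Age was tested with edgeR's quasi-likelihood test on UMIs summed for each library and class, setting 12mo v3 and 18mo v2 against the young libraries and adjusting for chemistry, which leaves 1 residual degree of freedom. A gene was called at an adjusted p below 0.05 after Benjamini-Hochberg adjustment over all genes tested. Within each chemistry the ratio of the older to the 2-month library is given with its 95% counting interval and no p, since each age is 1 library. In 5 of the 6 comparisons (all cells, papilla, sheath, fibroblast and keratinocyte) no member was called, whereas 2 were in the macrophage and dendritic-like class.

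In all kept cells, edgeR called 0 of 9 members and 0 of 15458 genes (0%), with 4 members and 1698 genes at an unadjusted p below 0.05. DESeq2 called 384 genes, among them 1 member, Gas1. Gas1 stood at 35.9 and 114 CPM in 2mo v2 and 18mo v2, a ratio of 3.17 (2.89 to 3.48), and at 98.1 and 151 CPM in 2mo v3 and 12mo v3, a ratio of 1.54 (1.49 to 1.59). Both older libraries were above their young partner, and the edgeR log2 fold of Gas1 was 1.14 ± 0.25 (SE; adjusted p = 0.331). Hhip stood at 114 and 83.0 CPM in version 2, a ratio of 0.729 (0.681 to 0.780), and at 110 and 34.4 CPM in version 3, a ratio of 0.312 (0.296 to 0.329). Its edgeR log2 fold was -1.07 ± 0.29 (adjusted p = 0.383). Papilla-like cells made up 30.9% and 19.2% of the version 2 libraries and 21.0% and 10.1% of the version 3 libraries, and fibroblast-like cells 10.4%, 28.1%, 6.85% and 17.7%. Keratinocyte-like cells made up 15.4%, 6.05%, 5.64% and 5.52%, and keratinocyte markers summed to 47160, 8791, 8000 and 6727 CPM in all kept cells. In sums over all cells, fewer cells of a type and less RNA per cell cannot be told apart. All genes share 1 total in CPM, so the keratinocyte part also enters these ratios, and its size was not tested.

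**Figure D2:**
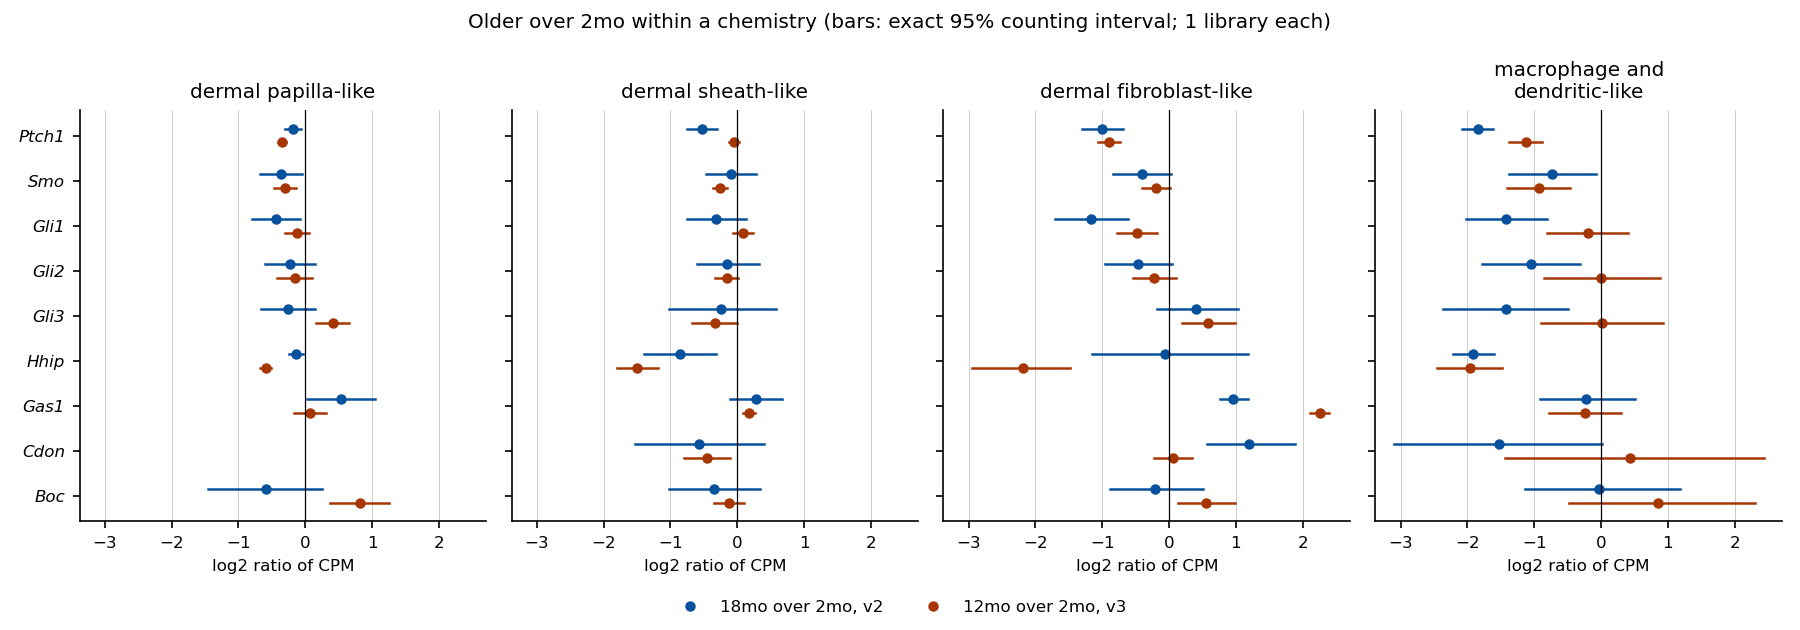
Ratio of CPM in the older library to that in the 2-month library of the same chemistry for the members in 4 classes, on a log2 scale with a line at 0 (equal levels); bars are exact 95% counting intervals and do not cover variation between mice. In fibroblast-like cells Gas1 lies right of 0 and Ptch1 left of 0 in both chemistries, and in macrophage and dendritic-like cells Hhip and Ptch1 lie left of 0 in both.

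In papilla-like cells, where most members were highest, edgeR called 0 of the 8 members tested, against 247 of 11459 genes (2.16%). Cdon was too low to be tested, and 0 members had an unadjusted p below 0.05. DESeq2 called 67 genes and 0 members. Hhip was at 0.907 (0.842 to 0.978) of its 2-month level at 18 months and at 0.662 (0.626 to 0.700) at 12 months, with an edgeR log2 fold of -0.34 ± 0.18 (adjusted p = 0.509). Ptch1 was at 0.879 (0.808 to 0.956) and 0.787 (0.755 to 0.820), with a log2 fold of -0.24 ± 0.18 (edgeR adjusted p = 0.708). For both genes each older library was below its young partner by more than counting error, but the edgeR test called neither gene. Within the papilla cluster that held most cells of a chemistry, Hhip was at 0.919 (0.850 to 0.994) in cluster 0 and at 0.665 in cluster 18, near the ratios of the whole class. The 16 papilla markers summed to 14236, 13550, 13369 and 9821 CPM in the same papilla-like cells. Of these markers 8 were above their 2-month level at 18 months, but 1 at 12 months, with a median log2 ratio of -0.38. Whether Hhip and Ptch1 differed from the markers in this was not tested.

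The remaining papilla values went in different directions. Smo was at 0.779 of its 2-month level at 18 months and 0.813 at 12 months, and Gli2 at 0.855 and 0.899. Gli1 was at 0.738 (0.574 to 0.947) and 0.919 (0.809 to 1.04). Gli3 was at 0.839 (0.635 to 1.11) at 18 months and at 1.33 (1.12 to 1.57) at 12 months, so its ratios lay on both sides of 1. Boc was likewise at 0.664 (0.364 to 1.19) and 1.76 (1.29 to 2.39), and Gas1 at 1.45 (1.02 to 2.07) and 1.05. Over the 8 members tested, 5 log2 folds were below 0 and 3 above, with a median of -0.19 and a range of -0.34 to 0.36, while 51.0% of all genes tested were below 0.

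In sheath-like cells, edgeR called 0 of 9 members, against 29 of 12300 genes (0.236%), with 1 member at an unadjusted p below 0.05. DESeq2 called 69 genes and 0 members. Hhip was that member, at 0.554 (0.380 to 0.807) of its 2-month level at 18 months and at 0.355 (0.286 to 0.440) at 12 months. Its log2 fold was -1.21 ± 0.20 (edgeR adjusted p = 0.0756). Most of its UMIs came from cluster 2 in 3 libraries, with 43 of 58 in 18mo v2, 238 of 263 in 2mo v3 and 117 of 133 in 12mo v3, but 6 of 61 in 2mo v2. The Hhip value thus rests on different sheath clusters in the 2-month libraries. Of the sheath-like cells, 10 of 278 in 2mo v2 and 104 of 402 in 18mo v2 were in cluster 2. In version 3 its share of the class was lower in the older library, at 30.5% in 2mo v3 and 17.2% in 12mo v3. The class ratios of Hhip cannot separate its level per cell from this make-up, and the part of the make-up in them was not tested. Cluster 2 had a mean marker z-score of 0.339 for the sheath list and 0.182 for the papilla list, with 0 sheath markers among its top 10 genes. In the other sheath-like clusters the mean for the sheath list was 0.591 to 0.777. Papilla markers summed to 1527 and 844 CPM in sheath-like cells of 2mo v2 and 18mo v2, and to 909 and 697 CPM in those of 2mo v3 and 12mo v3, and the part of papilla RNA in the Hhip value was not tested.

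Ptch1 in sheath-like cells was at 0.696 (0.597 to 0.812) of its 2-month level at 18 months and at 0.971 (0.921 to 1.02) at 12 months, so it was lower beyond counting error in version 2 alone with these classes. With classes by marker score it was lower in both, at 0.742 (0.630 to 0.875) and 0.807 (0.766 to 0.850). Smo was at 0.938 and 0.838, and Gas1 at 1.21 and 1.13. Of the 9 log2 folds, 8 were below 0 and 1 above, with a median of -0.15 against 50.1% of all genes below 0.

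In fibroblast-like cells, edgeR called 0 of 9 members, against 10 of 11626 genes (0.086%), with 4 members at an unadjusted p below 0.05. DESeq2 called 95 genes, 1 of them Gas1 among the members. Gas1 went from 168 to 328 CPM in version 2, a ratio of 1.95 (1.69 to 2.26), and from 103 to 493 CPM in version 3, a ratio of 4.76 (4.33 to 5.25). Its log2 fold was 1.67 ± 0.31 (edgeR adjusted p = 0.160). Ptch1 was at 0.50 (0.407 to 0.618) and 0.537 (0.481 to 0.601) of its 2-month level, with a log2 fold of -0.89 ± 0.14 (edgeR adjusted p = 0.132). Gli1 was at 0.445 (0.307 to 0.653) and 0.717 (0.583 to 0.884), with a log2 fold of -0.72 ± 0.22 (edgeR adjusted p = 0.375). All 4 ratios of Ptch1 and Gli1 lay below 1 beyond counting error, yet neither gene passed edgeR's threshold.

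The make-up of the fibroblast-like class differed between the libraries. Cluster 11, where Gas1 was high, held 30.3% and 59.9% of the fibroblast-like cells in version 2 and 14.9% and 68.8% in version 3. Cluster 7, where Ptch1 was high, held 57.1% and 34.7%, and 41.7% and 26.5%. Cluster 17 held 43.4% in 2mo v3 against 4.71% to 12.6% in the other libraries, and the macrophage markers summed to 4276 CPM in fibroblast-like cells of 2mo v3 against 257 to 1004 CPM in the others.

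Within cluster 11 Gas1 went from 378 to 492 CPM in version 2, a ratio of 1.30 (1.10 to 1.55), and from 426 to 674 CPM in version 3, a ratio of 1.58 (1.39 to 1.81). Within cluster 7 it went from 46.8 to 85.6 CPM, a ratio of 1.83 (1.27 to 2.70), and from 57.1 to 116 CPM, a ratio of 2.03 (1.64 to 2.52). Gas1 was thus above its 2-month level in both clusters and chemistries, with ratios in version 3 below the 4.76 of the whole class. Ptch1 within cluster 7 was at 0.738 (0.587 to 0.931) and 0.885 (0.776 to 1.01), and within cluster 11 at 0.382 (0.213 to 0.721) and 0.529 (0.359 to 0.803). The Ptch1 ratio of cluster 7 in version 3 did not leave 1 beyond counting error.

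**Figure D3:**
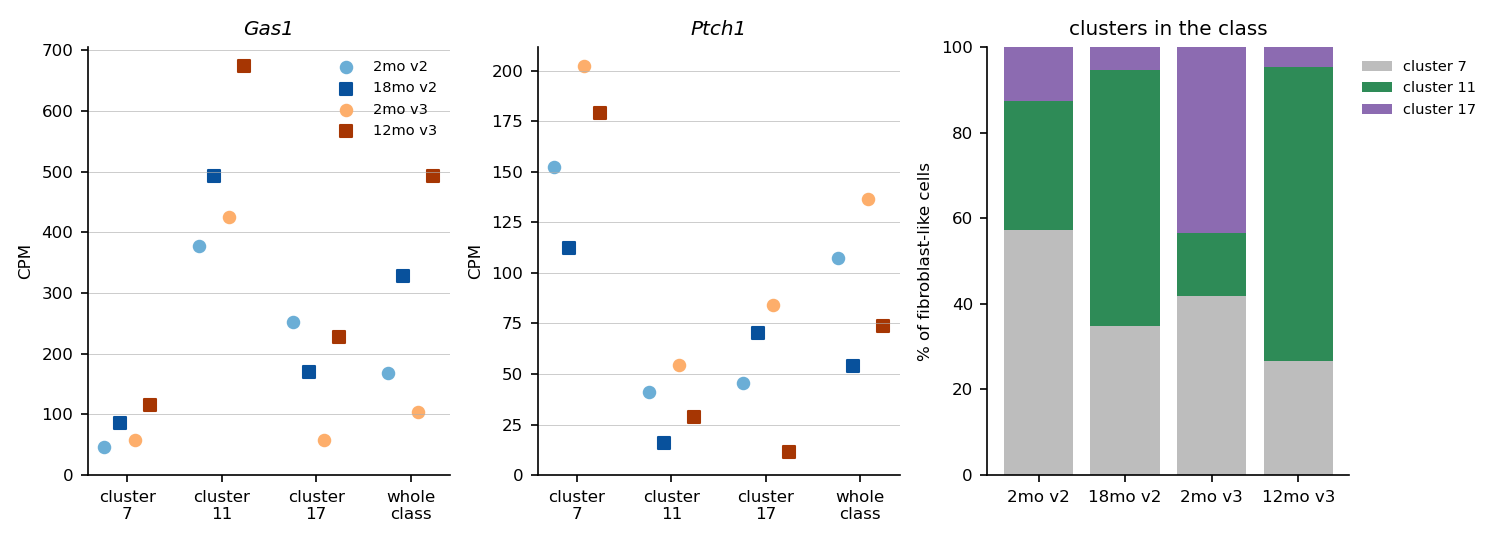
Gas1 and Ptch1 CPM in the 3 fibroblast-like clusters and in the whole class by library, with the share of the class held by each cluster as stacked bars; each point is 1 library, drawn without an error. Gas1 in cluster 11 lies at 378 to 674 CPM and in cluster 7 at 46.8 to 116 CPM, and the share of cluster 11 is larger in both older libraries.

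Other fibroblast members were not called either. Hhip was at 6.97, 6.68, 12.5 and 2.74 CPM, a ratio of 0.959 (0.452 to 2.27) at 18 months and 0.219 (0.130 to 0.358) at 12 months, on 9 to 57 UMIs. Its log2 fold was -1.25 ± 0.56 (edgeR adjusted p = 0.548), and with 12mo counted as young it was 0.0164. With classes by marker score Hhip was at 0.289 and 0.161 of its 2-month level, lower in both chemistries, and still not called. Gli3 was the remaining member with an unadjusted p below 0.05, at 1.32 (0.878 to 2.06) and 1.5 (1.14 to 1.99) of its 2-month level and a log2 fold of 0.56 ± 0.19 (edgeR adjusted p = 0.422). At 3000 UMIs Gas1 was detected in 27.4%, 46.9%, 18.3% and 54.7% of fibroblast-like cells, and Cdon in 3.43%, 10.7%, 11% and 11.4%. Cdon was at 2.28 (1.48 to 3.68) of its 2-month level at 18 months and at 1.04 (0.857 to 1.27) at 12 months. With these classes 2mo v2 alone thus stood low. By marker score Cdon was higher in both chemistries, at 2.85 (1.81 to 4.72) and 1.29 (1.05 to 1.57). Boc was at 0.863 and 1.46 with the cluster classes. Of the 9 log2 folds in fibroblast-like cells, 5 were below 0 and 4 above, from -1.25 to 1.67.

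**Figure D4:**
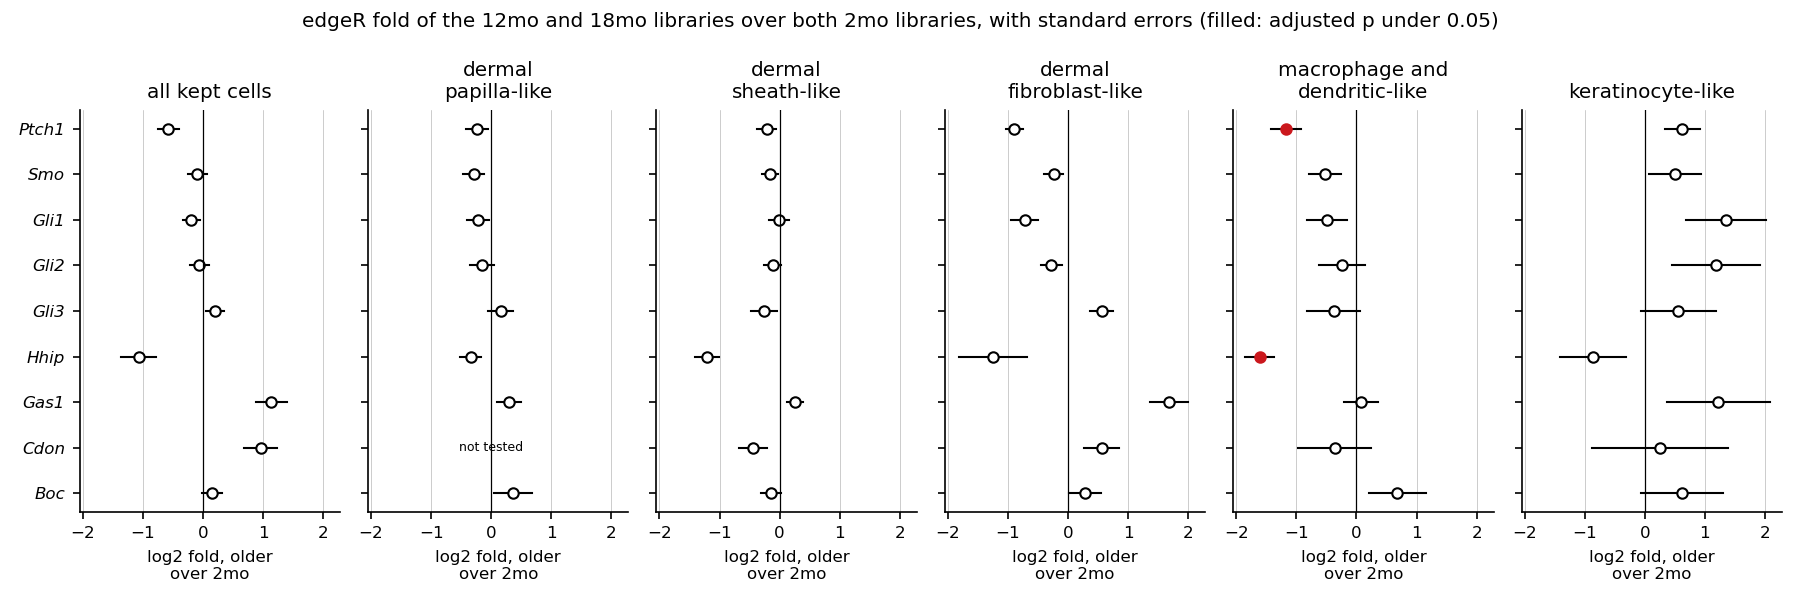
edgeR log2 fold of the older libraries over both 2-month libraries, adjusted for chemistry, for the members in each class; bars are 1 standard error and filled points passed an adjusted p of 0.05. Hhip at -1.61 and Ptch1 at -1.17 in macrophage and dendritic-like cells are the filled points.

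In macrophage and dendritic-like cells, immune cells caught by the sort, edgeR called 2 of 9 members, Hhip and Ptch1, both lower in the older libraries. It called 263 of 11565 genes (2.27%), of which 51 were lower (0.441%). Hhip was at 197 and 52.4 CPM in version 2, a ratio of 0.266 (0.216 to 0.328), and at 30.0 and 7.74 CPM in version 3, a ratio of 0.258 (0.182 to 0.359). Its log2 fold was -1.61 ± 0.24 (edgeR adjusted p = 0.0087). Ptch1 was at 329 and 91.6 CPM, a ratio of 0.278 (0.237 to 0.326), and at 74.1 and 34.0 CPM, a ratio of 0.459 (0.386 to 0.544). Its log2 fold was -1.17 ± 0.25 (edgeR adjusted p = 0.0289). Both genes fell, with ratios below 1 in both chemistries, and the library 2mo v2 stood highest for each. DESeq2 called 111 genes and Hhip alone of the members. With classes made from marker scores in place of clusters, edgeR called 0 of 11481 genes and 0 members, and it called 0 members without the chemistry term or with 12mo counted as young.

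Papilla marker RNA was also lower in the older library of each pair in these macrophage and dendritic-like sums. The 16 papilla markers, 0 of which were at 0 UMIs, summed to 3240, 1157, 624 and 248 CPM there, against 660, 500, 421 and 533 CPM in fibroblast-like cells and 114 to 269 CPM in keratinocyte-like cells. As a share of the level in papilla-like cells of the same library, the marker sum stood at 22.8%, 8.54%, 4.67% and 2.53%. Hhip stood at 38.7%, 11.4%, 4.99% and 1.94%, and Ptch1 at 79.3%, 25.1%, 7.73% and 4.50%. Gli1, with 42.7, 16, 8.89 and 7.74 CPM, stood at 79.7%, 40.5%, 9.63% and 9.12%. The order of the 4 libraries was thus the same for the marker sum and for these 3 members, as it was for Smo, Gli3 and Gas1. It was not the same for Gli2, at 56.0%, 31.6%, 8.84% and 9.89%, or for Boc, at 78.8%, 116%, 13.5% and 13.8%. The class held its own markers at 43457 to 78923 CPM. The part of papilla RNA in the Hhip and Ptch1 calls was not tested.

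**Figure D5:**
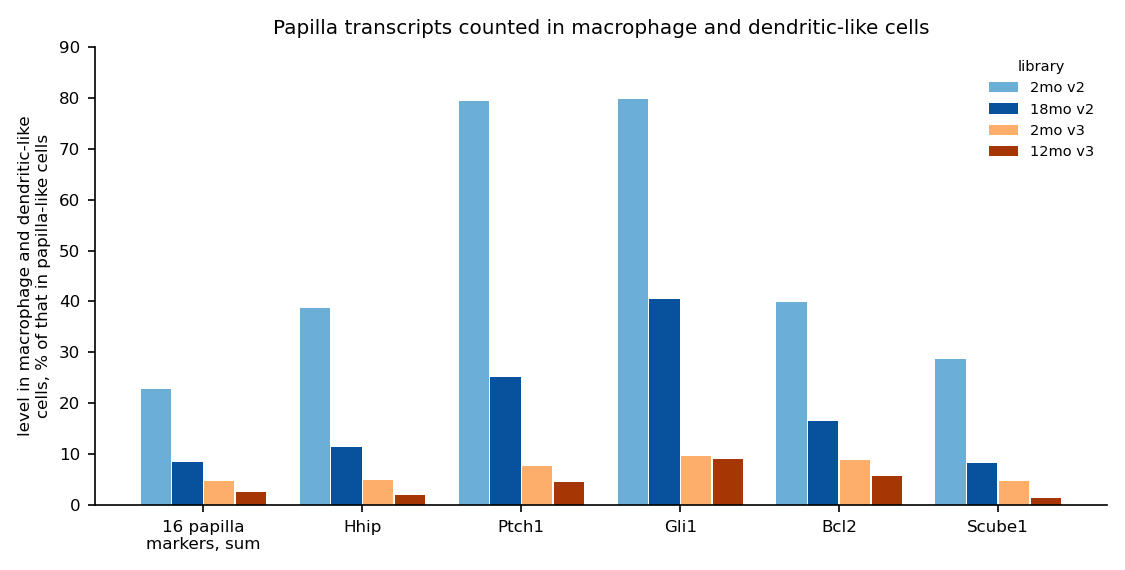
Level in macrophage and dendritic-like cells as a percentage of the level in papilla-like cells of the same library, for the sum of the 16 papilla markers and for 5 hedgehog genes; each bar is 1 library, drawn without an error. The marker sum goes from 22.8% in 2mo v2 to 2.53% in 12mo v3, and Hhip from 38.7% to 1.94%.

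Detection of both genes showed the same order of libraries. At 3000 UMIs Hhip was found in 31.4%, 9.22%, 2.65% and 0.889% of macrophage and dendritic-like cells, and Ptch1 in 53.3%, 14.2%, 7.46% and 4.59%. In 12mo v3 both lay at or below the shares of keratinocyte-like cells, 0.935% and 6.07%, which are read as background. For Ptch1 this background is uncertain, since follicle epithelium can itself express it. Median depths before thinning in 12mo v3 were 6940 UMIs in macrophage and dendritic-like and 19691 UMIs in keratinocyte-like cells, so thinning reduced the latter more. Within cluster 1 Ptch1 was at 0.248 and 0.212 of its 2-month level and Hhip at 0.213 and 0.107, and within cluster 12 Ptch1 was at 0.476 and 0.623 and Hhip at 0.589 and 0.450. Of the 9 log2 folds in this class, 7 were below 0 and 2 above, with a median of -0.38. The CPM ratios carry no scaling beyond the library total, and TMM scaling moves them by 0.29 and 0.30 on the log2 scale at 18 and 12 months in this class, by -0.11 and 0.10 in all cells, and by -0.44 in keratinocyte-like cells at 18 months.

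In keratinocyte-like cells, edgeR called 0 of 9 members and 0 of 11113 genes (0%), with 0 members and 700 genes at an unadjusted p below 0.05. DESeq2 called 19 genes and 0 members. Of the 9 log2 folds, 1 was below 0 and 8 above, with a median of 0.62, while 48.6% of all genes tested were below 0. Ptch1 was at 2.35 (1.61 to 3.42) of its 2-month level at 18 months and at 1.42 (1.13 to 1.78) at 12 months, and Smo at 3.52 (2.26 to 5.53) and 0.871 (0.693 to 1.09). Cluster 3 held 217 of 259 of these cells in 2mo v2 but 60 of 147 in 18mo v2, 158 of 304 in 2mo v3 and 95 of 219 in 12mo v3. Hhip there was at 4.89, 4.03, 3.76 and 1.89 CPM, and Gli1 at 0.789, 5.64, 3.49 and 5.48 CPM. These levels rest on few UMIs, and the epithelial cells are those that remained after the epidermis was taken off.

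Of 61 other hedgehog pathway genes, 49 were tested in papilla-like cells and edgeR called 2, both lower. The list held ligands, membrane and intracellular regulators, cilium transport genes and reported targets. Of all genes tested in that class, 247 of 11459 (2.16%) were called in either direction, and 84 of these were lower. Ccnd2, a cyclin of the G1 phase, was at 36.2, 6.29, 49.8 and 3.97 CPM and its log2 fold was -3.08 ± 0.28 (edgeR adjusted p = 3.82e-06). Osr2, a zinc-finger transcription factor, was at 3.11, 0.699, 6.16 and 1.06 CPM, with a log2 fold of -2.34 ± 0.57 (edgeR adjusted p = 0.0351). Both older libraries lay below both young ones for Ccnd2 and for Osr2. Keratinocyte markers summed to 1168, 433, 477 and 205 CPM in the same papilla-like cells, and Ccnd2 was among the 3 highest pathway genes of keratinocyte-like cells, with a mean of 208 CPM. The part of keratinocyte RNA in the Ccnd2 call was not tested. Both calls were lost without the chemistry term or with 12mo counted as young, and Osr2, on 2 and 4 UMIs in the older libraries, was also lost without doublet removal (log2 fold -1.47).

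In macrophage and dendritic-like cells 1 of 45 other pathway genes was called, and it was lower. Of all genes tested there, 2.27% were called in either direction and 0.441% were called lower. The called gene was Scube1, which encodes a secreted protein of the ligand-release group. Scube1 was at 33.1, 10.6, 9.76 and 2.02 CPM there and at 115, 129, 208 and 144 CPM in papilla-like cells, and its log2 fold was -1.60 ± 0.36 (edgeR adjusted p = 0.0388). It stood at 28.8%, 8.16%, 4.70% and 1.40% of its papilla level, in the same order of libraries as the papilla marker sum, and its call was lost with DESeq2, RLE scaling or marker-score classes. In all cells, sheath-like, fibroblast-like and keratinocyte-like cells, 0 of 54, 0 of 51, 0 of 47 and 0 of 45 other pathway genes were called by edgeR. The median log2 fold of the pathway genes was -0.13 in the papilla-like class and -0.19 in the macrophage and dendritic-like class, with 29 genes below 0 in each.

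Levels of a few other pathway genes are given by class, as means over the 4 libraries, without an order between genes. Csnk1a1, a kinase that phosphorylates Gli proteins, had a mean of 378 CPM in papilla-like, 242 CPM in sheath-like and 272 CPM in fibroblast-like cells. Prkar1a, the regulatory subunit of protein kinase A, had means of 267, 161 and 175 CPM. Bcl2, an inhibitor of apoptosis, had a mean of 455 CPM (369 to 510) in papilla-like cells, Ccnd1, a cyclin, 185 CPM in sheath-like cells and Spop, a ubiquitin ligase adaptor, 160 CPM in fibroblast-like cells.

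Profiles over the 5 classes with at least 50 cells in every library, giving 20 class and library values, were used to find the genes most like each member among 10541 genes. Pearson's r of log2(CPM + 1) is given as a description, since the 20 values share libraries and depth. Tle2, Armcx6 and Bcl2 were closest to Ptch1, with r of 0.967, 0.960 and 0.958. Pappa2, Hsd11b2 and Hey2 were closest to Hhip (0.973, 0.971 and 0.968), of which Pappa2 is on the papilla marker list. Pygo1, Tcaf1 and Hoxc6 were closest to Gli1 (0.982, 0.978 and 0.976), and Large, Tcaf1 and Armcx2 to Gli2 (0.983, 0.982 and 0.981). Tcaf1 thus appeared for both activators, whose own r was 0.963.

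The other members had other neighbours. Qser1, Amer1 and Wdr60 were closest to Smo (0.971, 0.960 and 0.959) and Clstn1, Snai2 and Igf1r to Gli3 (0.968, 0.950 and 0.935). Htra1, Lamc1 and Nfix were closest to Gas1 (0.966, 0.928 and 0.924). Adam12, Dcn and Adgrd1 were closest to Cdon (0.952, 0.943 and 0.942), of which Dcn is on the fibroblast marker list. Smoc2, Evc2 and Eml1 were closest to Boc (0.967, 0.944 and 0.939), and Evc2, a ciliary membrane protein, is on the pathway list. Between members, r was 0.943 for Ptch1 with Gli1, 0.861 for Ptch1 with Hhip, 0.848 for Gas1 with Boc and -0.439 for Hhip with Cdon.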

How the data were processed

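Single-cell 3' RNA-seq was analysed from 4 libraries, each 1 sample. The deposited values are raw UMI counts per gene and cell barcode, which the authors made with Cell Ranger 2.0.1 and STAR, with Seurat 2.1.0 and the builds mm10 and GRCm38.p5 also named, per the submitters' processing notes. The version 3 matrices name software version 3.0.1, per the file headers.

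Cells needed a minimum of 500 detected genes and 1000 UMIs with a mitochondrial share below 10%, and the top 3% of doublet scores in each library were removed. Totals were 17831300 and 21083193 UMIs in 2mo v2 and 18mo v2, and 77032628 and 55396394 UMIs in 2mo v3 and 12mo v3. Cells were clustered with scanpy 1.11.5 (2000 variable genes without the hedgehog genes, 30 principal components, 15 neighbours, Leiden resolution 0.5). A cluster took the name of the list with the highest mean marker z-score if at least 3 of its markers were in at least 20% of cells, and stayed unnamed if its top 10 genes held more markers of another list. This naming rule was set after cluster markers and cell numbers were seen and before members were compared by age. Cluster 15, with 1044 of its cells in 2mo v3, stayed unnamed.

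Counts were summed for each library and class, provided that all libraries held 50 or more of its cells, and tested with edgeR 4.0.16 (R 4.3.3; glmQLFit, glmQLFTest, TMM, filterByExpr, two-sided, chemistry as covariate). Genes were called at an adjusted p under 0.05 (Benjamini-Hochberg over all genes tested), and standard errors are the log2 fold divided by the root of F. The fit assumes that libraries vary alike. With 1 library for each age and chemistry, the 1 residual degree of freedom is the disagreement between the age differences of the chemistries. The p-values rest on that disagreement, with information shared over genes, and variation between mice was not measured. Ratios have exact conditional Poisson and shares exact Clopper-Pearson 95% intervals, both for counting error only, and the floor for 0 counts is 3 UMIs. The named genes are the 9 members, pathway genes that were called or among the 3 highest in a class, and the 3 genes most alike to each member with a mean of at least 5 CPM. The code was tested on simulated data. Alternatives were DESeq2 1.42.0, other scaling, filters, cell limits, doublet treatment, resolution and classes, 12mo taken as young, no covariate, and libraries left out. The members and lists were chosen with earlier results of these data known.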

Additional observations from a re-analysis of the deposited data

Results flagged for a closer look

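Smo in all kept cells stood on opposite sides of 1 in the 2 chemistries. Its CPM was 29.9 in 2mo v2 and 33.7 in 18mo v2, a ratio of 1.13 (95% counting interval 1.00 to 1.27), and 74.9 in 2mo v3 and 58.8 in 12mo v3, a ratio of 0.784 (0.749 to 0.820). The difference between the 2 ratios was not tested, and age and chemistry cannot be told apart. Keratinocyte markers summed to 47160 and 8791 CPM in all kept cells of 2mo v2 and 18mo v2, against 8000 and 6727 CPM in 2mo v3 and 12mo v3. The part of this in the Smo ratios was not tested. Within papilla-like, sheath-like, fibroblast-like and macrophage and dendritic-like cells, the Smo level of each older library was below that of its 2-month partner. In keratinocyte-like cells Smo went from 5.84 to 20.5 CPM in version 2, a ratio of 3.52 (2.26 to 5.53), and from 27.8 to 24.2 CPM in version 3, a ratio of 0.871 (0.693 to 1.09).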

How the results depend on the processing

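DESeq2 called 1 member, Gas1, in all cells and in fibroblast-like cells, and 1, Hhip, in macrophage and dendritic-like cells. Without the filter on low counts 1 member was called in sheath-like cells (Hhip) and 2 in fibroblast-like cells (Gas1 and Ptch1). Without doublet removal 1 was called in sheath-like cells (Hhip) and 1 in macrophage and dendritic-like cells (Hhip), where a mitochondrial limit of 5% also left 1 (Hhip). Classes by marker score gave 1 in sheath-like and fibroblast-like cells (Gas1 in both) and 0 in macrophage and dendritic-like cells. A clustering resolution of 1 gave 1 in fibroblast-like cells (Ptch1). The 2 macrophage and dendritic-like calls became 0 without the chemistry covariate, and 0 with 12mo counted as young, which gave 1 (Gas1) in keratinocyte-like cells. Leaving out 1 library at a time without the covariate gave 0 to 0 calls there. The cause of these changes was not tested. The count of members called was the same in 66 other fits.

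Among the members and genes with a printed fold, the direction turned for Hhip in fibroblast-like cells with 12mo counted as young (0.0164), and otherwise only in fits without the chemistry covariate that also left out a library, where chemistry and age are unbalanced. Over all fits that left out 1 library the log2 fold ran from -0.91 to 0.46 for Ptch1 in papilla-like cells, from -3.64 to 0.40 for Hhip and from -2.34 to 0.15 for Ptch1 in macrophage and dendritic-like cells. With the covariate, a fit that leaves out 1 library is the value of the other chemistry, with no residual degrees of freedom and no test: for Ptch1 in macrophage and dendritic-like cells -0.82 without 2mo v2, -0.88 without 18mo v2, and -1.56 and -1.55 without 2mo v3 and 12mo v3. For Ptch1 the adjusted p ran from 0.000246 to 1.00 over its alternatives, and for Hhip in that class from 4.99e-07 to 1.00. Hhip in sheath-like cells was at -0.83 with cluster 15 added and at -1.87 without cluster 2, 2 fits chosen after seeing the data, with adjusted p of 0.143 and 0.34 in a range of 1.03e-07 to 1.00. Ccnd2 in papilla-like cells lost its call without the covariate and with 12mo counted as young, and Osr2 and Scube1 lost theirs also without doublet removal.

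Counts of all genes called differed by more than 1.5 times. DESeq2 gave 384 in all cells, 67 in papilla-like, 69 in sheath-like, 95 in fibroblast-like, 111 in macrophage and dendritic-like and 19 in keratinocyte-like cells, and no filter gave 1, 426, 494, 357, 602 and 209 in that order. The fit without the covariate gave 0 in each, and 12mo as young gave 0 except for 159 in keratinocyte-like cells. RLE scaling gave 8 in sheath-like and 26 in fibroblast-like cells. A minimum of 1000 genes gave 123 in papilla-like, 3 in sheath-like and 22 in fibroblast-like cells, and the 5% mitochondrial limit 74 in fibroblast-like, 170 in macrophage and dendritic-like and 12 in keratinocyte-like cells. No doublet removal gave 90 in sheath-like, 48 in fibroblast-like and 95 in macrophage and dendritic-like cells. Marker-score classes gave 597 in papilla-like, 340 in sheath-like, 133 in fibroblast-like, 0 in macrophage and dendritic-like and 3 in keratinocyte-like cells, and resolution 1 gave 91 in sheath-like and 115 in fibroblast-like cells. Adding cluster 15 gave 47 and taking out cluster 2 gave 3 in sheath-like cells. The chemistry term pairs each older library with the young library of its version, so the fit without it is the unpaired one. Gas1 had 8 UMIs in keratinocyte-like cells of 2mo v2, and the effect of depth on calls of low members was not tested.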
